A study of Mus musculus with 2 samples.

Results

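The Clec genes encode a family of proteins that carry a C-type lectin-like domain. The family was taken as every gene of the count table whose symbol in GENCODE mouse release M21 is Clec followed by a digit and that is annotated as protein-coding, plus Clec7a. Clec7a was kept because the selection rule names it, although M21 types it as a polymorphic pseudogene. This gave 31 genes of 34745 in the table, 30 of them annotated as protein-coding. The pseudogenes Clec2f and Clec2j were left out.

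RNA-seq counts came from 2 libraries of mouse ear skin, 1 labelled KAT8 cKO, a conditional knockout of Kat8, and 1 labelled WT. KAT8 is a histone acetyltransferase that acetylates histone H4. Ears of both genotypes had received 30 mg of a 5% imiquimod cream per ear and day for 3 days and were taken on day 4. Imiquimod activates the receptor TLR7 and produces a psoriasis-like inflammation of mouse skin. The sources used here do not give strain, age, sex, the number of animals behind a library, or the promoter or cell type that drives the knockout, and untreated skin was not analysed here.

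The libraries held 13727524 counts (KAT8 cKO) and 12179608 counts (WT). With 1 library per genotype there was no replicate and no test, so every value below compares 2 libraries and not 2 genotypes. Intervals are exact 95% intervals for counting error only: no molecular identifiers are named in the protocol, so several reads may stem from 1 molecule. Kat8 had 351 counts in the library labelled KAT8 cKO and 219 in the library labelled WT, a ratio of 1.27 (interval 1.07 to 1.51). A loss of the targeted gene was thus not visible in its counts. The deleted part of the gene and the cell type of the knockout are not given. Counts of the whole gene in bulk skin therefore cannot test the label. Every direction below is that of libraries as labelled. Xist had 6 and 11891 counts in the same order. The Y-linked genes Eif2s3y, Kdm5d and Ddx3y had 838 and 0, 305 and 0, and 635 and 5. The library labelled KAT8 cKO thus has the transcripts of males and the library labelled WT those of females. Genotype label and sex cannot be told apart in these libraries. All 31 Clec genes lie on autosomes, but the part of sex in their differences was not tested. Markers of muscle and of adipocytes were each lower for all 4 genes listed in the library labelled KAT8 cKO, with sums of 1008 and 184 CPM there and 8025 and 970 CPM in the library labelled WT, and the part of tissue make-up in the differences was not tested. In bulk skin, fewer cells of a type and less RNA per cell cannot be told apart.

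C-type lectin receptors of myeloid cells bind sugars, glycolipids or debris of dying cells. One class carries an activating signal to the kinase SYK, either through a tyrosine motif of its own (Clec7a, Clec9a) or through the adaptors FcRγ, encoded by Fcer1g, and DAP12, encoded by Tyrobp. SYK acts through CARD9, BCL10 and MALT1 to switch on cytokine genes. A second class carries inhibitory motifs that recruit the phosphatases SHP-1 and SHP-2. Other Clec proteins sit on endothelium or platelets, serve as ligands of natural killer cell receptors, or are secreted into matrix and plasma. Of the 31 genes, 23 lie on chromosome 6, many of them side by side.

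The 5 promoters printed here belong to the receptor genes that carry the differences described below: Clec4d, Clec4e and Clec5a, lower in the library labelled KAT8 cKO, Clec4b1, higher there, and Clec7a, close in both. Each runs from 250 bases before to 50 bases after the RefSeq start of the gene, 5′ to 3′ on the gene's own strand (RefSeq on GRCm38.p6). Capitals mark matches, on either strand, to any of 5 short motifs. They are the PU.1 core GAGGAA, the C/EBP core TTNNGNAA, the TATA box TATAAA, the AP-1 site TGANTCA and an NF-kB pattern of GGG and CC with 5 letters between them.
Clec4d, chr6:123261857-123262156, plus strand: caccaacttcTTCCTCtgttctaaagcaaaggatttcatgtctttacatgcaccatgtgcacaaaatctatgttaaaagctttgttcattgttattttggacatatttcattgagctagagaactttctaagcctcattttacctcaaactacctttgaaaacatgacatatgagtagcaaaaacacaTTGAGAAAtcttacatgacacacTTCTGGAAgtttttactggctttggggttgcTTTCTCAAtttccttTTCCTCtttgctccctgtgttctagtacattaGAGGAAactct
Clec4e, chr6:123289822-123290121, minus strand: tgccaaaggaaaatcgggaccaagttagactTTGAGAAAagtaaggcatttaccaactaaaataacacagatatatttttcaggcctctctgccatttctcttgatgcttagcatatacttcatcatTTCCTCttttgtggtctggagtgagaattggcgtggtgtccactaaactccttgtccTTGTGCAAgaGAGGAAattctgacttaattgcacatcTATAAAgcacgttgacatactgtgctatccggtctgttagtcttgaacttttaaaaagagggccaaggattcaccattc
Clec5a, chr6:40585756-40586055, minus strand: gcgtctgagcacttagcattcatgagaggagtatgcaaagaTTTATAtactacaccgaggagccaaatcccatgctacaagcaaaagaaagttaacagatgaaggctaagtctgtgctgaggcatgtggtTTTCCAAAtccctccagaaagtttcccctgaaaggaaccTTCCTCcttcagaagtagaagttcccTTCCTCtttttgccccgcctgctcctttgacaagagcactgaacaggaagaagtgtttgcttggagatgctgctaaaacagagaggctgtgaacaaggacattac
Clec4b1, chr6:123049712-123050011, plus strand: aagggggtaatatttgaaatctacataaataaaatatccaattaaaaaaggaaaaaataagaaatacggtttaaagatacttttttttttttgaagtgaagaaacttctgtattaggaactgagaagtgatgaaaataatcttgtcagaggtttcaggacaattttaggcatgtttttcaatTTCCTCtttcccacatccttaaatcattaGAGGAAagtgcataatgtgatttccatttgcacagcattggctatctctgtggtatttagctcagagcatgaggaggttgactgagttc
Clec7a, chr6:129472730-129473029, minus strand: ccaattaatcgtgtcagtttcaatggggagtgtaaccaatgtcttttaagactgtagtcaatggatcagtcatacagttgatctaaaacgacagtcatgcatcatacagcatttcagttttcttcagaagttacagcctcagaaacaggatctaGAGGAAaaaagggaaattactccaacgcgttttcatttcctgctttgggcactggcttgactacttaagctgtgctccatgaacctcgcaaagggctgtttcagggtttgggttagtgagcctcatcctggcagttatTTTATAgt

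The promoters of Clec4d, Clec4e and Clec5a each held a PU.1 core and a C/EBP core. PU.1 and the C/EBP factors are known regulators of myeloid genes. The Clec4b1 and Clec7a promoters held the PU.1 core and no match to the C/EBP core. The cores did not follow direction over the other members past 2-fold with an entry: Clec2g, lower, held neither, Clec14a, lower, held the PU.1 core alone, and Clec12b, higher, held the C/EBP core alone. A TATA box began 29 bases before the start of Clec4e. Both cores stood together in 11.8% of the 32851 promoters of the table and in 8 of the 25 Clec genes with an entry. The other members with both were Clec11a, Clec12a, Clec16a, Clec2l and Clec4b2, which do not share a direction in these libraries. Singly, the PU.1 core stood in 28.3% of all promoters and 14 of the 25, the C/EBP core in 40.7% and 13, the TATA box in 13.6% and 8, the AP-1 site in 7.81% and 6, and the NF-kB pattern in 50.8% and 5. No matches overlap in the printed promoters, and a match is a run of letters, not a bound site.

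Across the family, the library labelled KAT8 cKO had less Clec RNA than the library labelled WT, and the gap lay in a few receptor genes. The 31 genes summed to 6218 counts, or 428 CPM (counts scaled to library total and to the trimmed mean of M values), in the library labelled KAT8 cKO and to 8379 counts, or 727 CPM, in the library labelled WT, a ratio of 0.589 (interval 0.570 to 0.609). Without Clec4d, Clec4e and Clec5a, which were set aside after their values were seen, the sums were 362 and 398 CPM, a ratio of 0.908 (interval 0.872 to 0.945). Genes that reached 1 CPM in one or both libraries were counted as measured, and as higher or lower with a log2 ratio of at least 1 in size after 1 CPM was added to each value. By this rule 23 members were measured, 6 stood lower in the library labelled KAT8 cKO, 2 were higher and 15 lay within 2-fold. The lower genes were 26.1% of the measured members, against 8.63% of all 15240 measured genes, and the higher ones 8.70%, against 4.56%. The median log2 ratio of the measured members was -0.07, against 0.01 over all measured genes. The single ratios ran from -2.41 to 1.49, so the family did not share a direction.

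**Figure D1:**
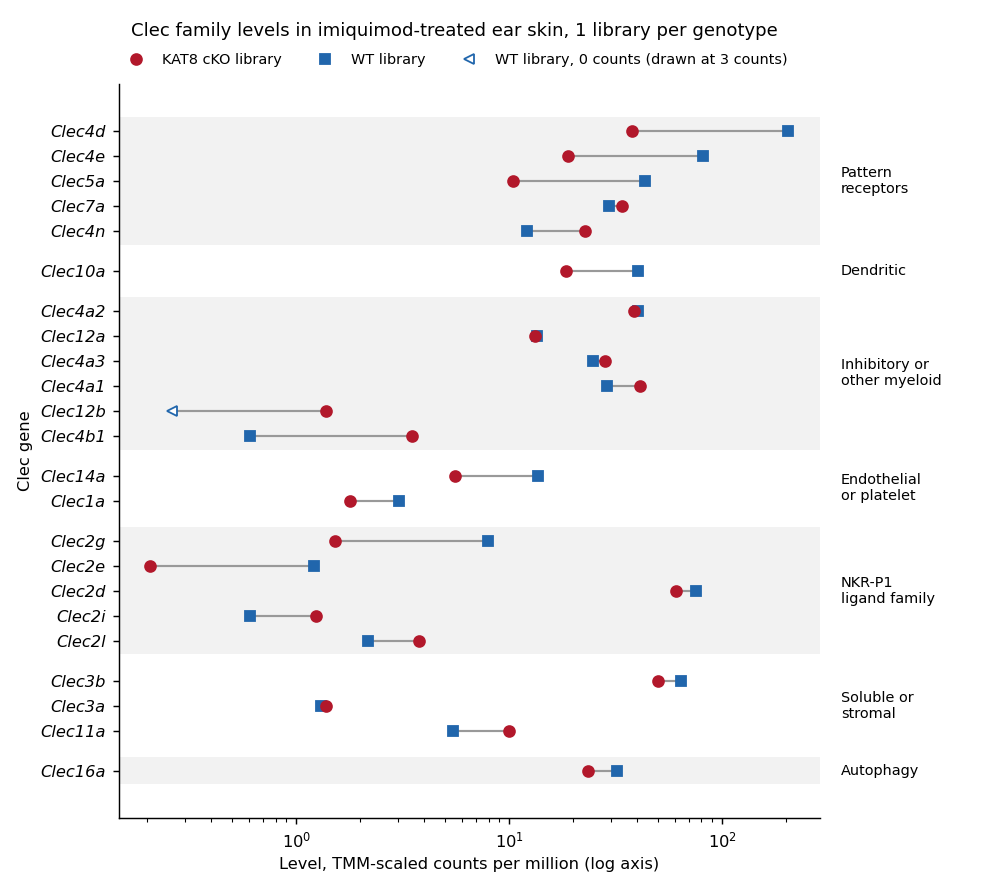
Levels of the 23 measured Clec genes in CPM (log axis) in the library labelled KAT8 cKO (circles) and the library labelled WT (squares), grouped by role, with a triangle at 3 counts for Clec12b, which had 0 in the library labelled WT. Clec4d stands at 37.7 and 204 CPM, whereas Clec2d, Clec3b and Clec4a2 lie close together in both libraries.

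Among the pattern receptors, Clec4d, Clec4e and Clec5a stood lower in the library labelled KAT8 cKO and Clec7a and Clec4n did not. Clec4d (MCL), which binds mycobacterial glycolipid and pairs with Mincle, had 547 counts (37.7 CPM) in the library labelled KAT8 cKO and 2353 (204 CPM) in the library labelled WT. It was 5.42-fold lower (interval 4.94 to 5.96), and its log2 ratio of -2.41 was the lowest of the 23 measured members. Clec4e (Mincle), a sensor of glycolipids and of the nuclear protein SAP130 from dying cells, had 273 counts (18.8 CPM) and 938 (81.4 CPM) in the same order. It was 4.33-fold lower (interval 3.78 to 4.97). Clec5a, a DAP12-coupled receptor of monocytes and neutrophils, had 151 counts (10.4 CPM) in the library labelled KAT8 cKO and 499 (43.3 CPM) in the library labelled WT, 4.16-fold lower (interval 3.46 to 5.03).

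The other pattern receptors stood level or above. Clec7a, the β-glucan receptor dectin 1, had 492 counts (33.9 CPM) in the library labelled KAT8 cKO and 339 (29.4 CPM) in the library labelled WT, a ratio of 1.15 (interval 1.0 to 1.33). Clec4n, the mannan receptor dectin 2, had 330 counts (22.7 CPM) and 140 (12.2 CPM) in the same order. Its ratio of 1.87 (interval 1.53 to 2.30) left it within 2-fold, and its log2 ratio of 0.85 passed the threshold with CPM from plain library totals. Within a library, which needs no scaling, there were 1.66 Clec4d counts per Clec4n count in the library labelled KAT8 cKO and 16.8 in the library labelled WT.

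The make-up of the family differed between the libraries. Clec4d took 8.80% of all Clec counts in the library labelled KAT8 cKO (interval 8.10 to 9.53) and 28.1% in the library labelled WT (27.1 to 29.1). Clec7a took 7.91% (7.25 to 8.61) and 4.05% (3.63 to 4.49), and Clec4n 5.31% (4.76 to 5.89) and 1.67% (1.41 to 1.97). There were 1.11 counts of Clec4d per Clec7a count in the library labelled KAT8 cKO and 6.94 in the library labelled WT, a ratio of 0.160 (interval 0.135 to 0.190). Clec4e against Clec7a gave 0.201 (interval 0.165 to 0.244) and Clec5a against Clec7a gave 0.209 (interval 0.165 to 0.264). Clec4d and Clec4e kept closer to each other, at 2.0 Clec4d counts per Clec4e count in the library labelled KAT8 cKO and 2.51 in the library labelled WT.

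**Figure D2:**
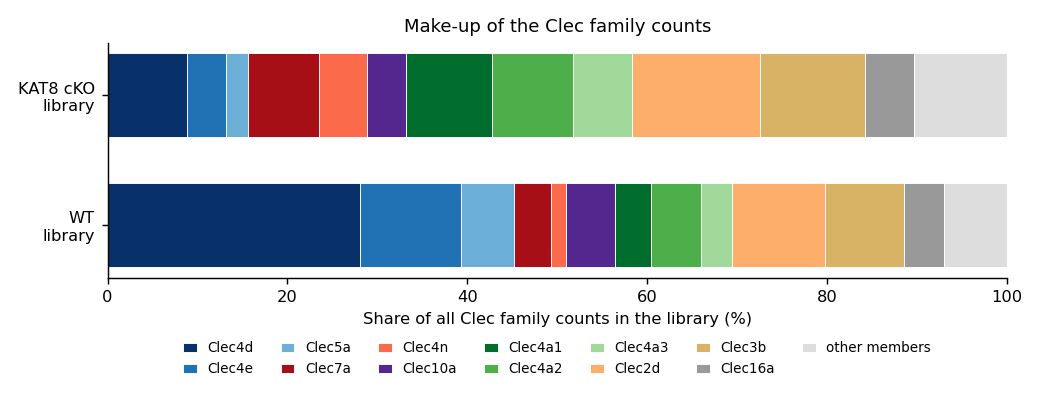
Share of all Clec family counts (%) taken by each of 12 genes and by the other members together, in the library labelled KAT8 cKO (top) and the library labelled WT (bottom). Clec4d narrows to 8.80% in the library labelled KAT8 cKO against 28.1% in the library labelled WT, and Clec4a1 takes 9.57% against 3.97%.

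The dendritic receptors named with the pattern receptors gave a one-gene comparison, because Clec9a was near absent. Clec9a (DNGR-1), by which type 1 dendritic cells sense filamentous actin of dead cells, had 3 counts in the library labelled KAT8 cKO and 0 in the library labelled WT, where 0 counts allow up to 0.260 CPM. No fold is given for it. Clec10a (MGL1), a galactose-type lectin of mouse macrophages and dendritic cells, had 269 counts (18.5 CPM) in the library labelled KAT8 cKO and 462 (40.1 CPM) in the library labelled WT. It was 2.16-fold lower (interval 1.86 to 2.52), the same direction as Clec4d and Clec4e. Its log2 ratio of -1.07 passed the threshold narrowly and was -0.92 with CPM from plain library totals. Clec4a4 (DCIR2), the dendritic cell member of the DCIR group, had 2 and 0 counts.

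The contrast of the classes summed genes that differed in direction. Clec4d, Clec4e and Clec7a together had 1312 counts against 272 of Clec9a and Clec10a in the library labelled KAT8 cKO, 4.82 per dendritic receptor count, and 3630 against 462, or 7.86, in the library labelled WT. The ratio of these ratios was 0.614 (interval 0.520 to 0.725), a log2 difference of -0.70. It rested on Clec4d: without that gene the log2 difference was 0.025, with the opposite sign, and without Clec7a it was -1.24. Taken singly against the dendritic pair, Clec4d gave a ratio of 0.395, Clec4e 0.494 and Clec7a 2.47.

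**Figure D3:**
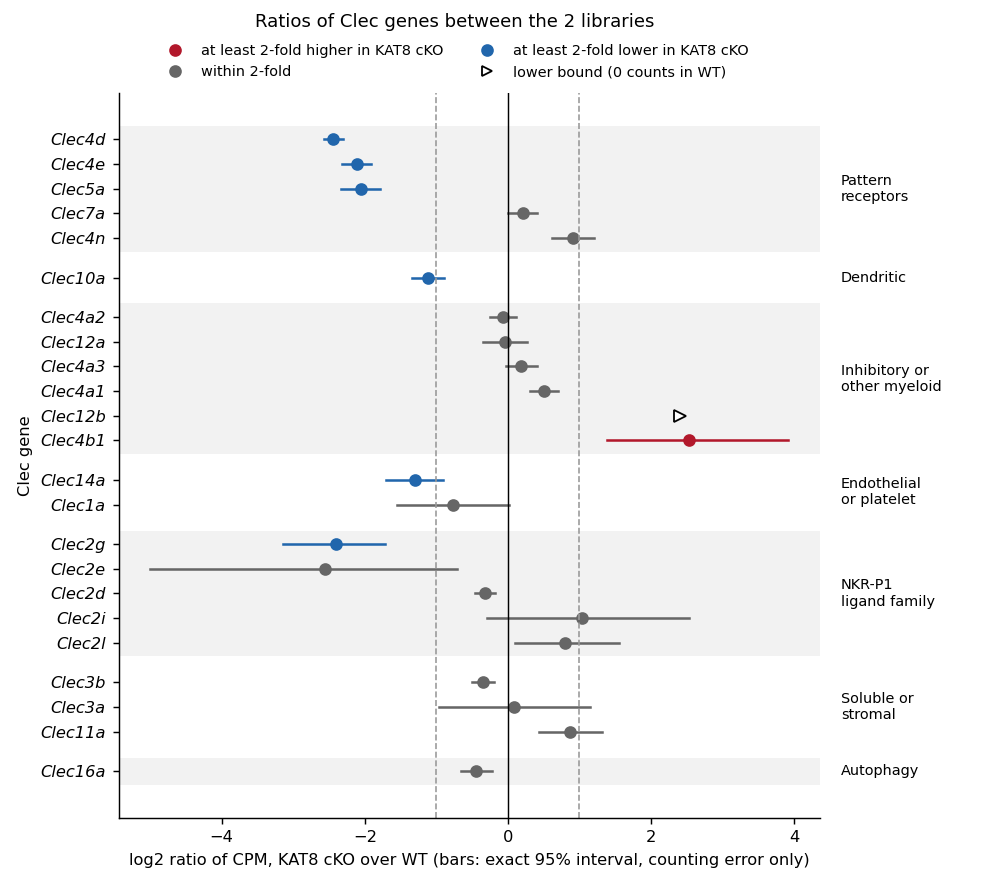
log2 ratio of CPM (KAT8 cKO over WT) for each measured Clec gene with its exact 95% interval for counting error, grouped by role; dashed lines mark 2-fold. The pattern receptors split, with Clec4d, Clec4e and Clec5a beyond the left line and Clec7a and Clec4n right of 0, and Clec10a lies on the left with the lower receptors.

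Markers of neutrophils were lower along with Clec4d, Clec4e and Clec5a. Those of macrophages were lower or within 2-fold, and those of dendritic cells were higher or within 2-fold. Of 12 neutrophil markers 10 were measured. In the library labelled KAT8 cKO, 8 of these stood lower (80%, against 8.63% of all measured genes) and none higher. The 12 markers summed to 5083 CPM in the library labelled KAT8 cKO and 14041 CPM in the library labelled WT. Leaving out S100a8 and S100a9, which inflamed keratinocytes also express, the sums were 481 and 3458 CPM. The granulocyte genes Mpo and Elane had at most 3 counts in either library. Clec4d, Clec4e and Clec5a are known in neutrophils and inflammatory monocytes.

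Set against single leukocyte genes, chosen partly after values were seen, Clec4d, Clec4e and Clec5a stayed lower in the library labelled KAT8 cKO. The genes taken were Ptprc, Csf3r, Cxcr2, Csf1r, Mrc1 and Itgax. Against the most lowered neutrophil genes the direction differed. Per 100 counts of Ptprc, which encodes CD45 of all leukocytes, Clec4d had 39.4 counts in the library labelled KAT8 cKO and 118 in the library labelled WT. Per 100 counts of Csf3r, a neutrophil receptor gene that was itself 3.06-fold lower, Clec4d had 30.8 and 54.6 counts in the same order, a ratio of 0.564 (interval 0.505 to 0.629). The same measure gave 0.706 (interval 0.608 to 0.818) for Clec4e and 0.734 (interval 0.603 to 0.890) for Clec5a, but 1.41 (interval 1.2 to 1.66) for Clec10a. Per Cxcr2 count the ratios were 0.618 for Clec4d, 0.774 for Clec4e, 0.804 for Clec5a and 1.55 for Clec10a. Csf3r was among the least lowered of the neutrophil genes. The neutrophil list without S100a8 and S100a9 had a summed CPM ratio of 0.139, with 0.052 for Ngp, 0.096 for Mmp8 and 0.111 for Retnlg. These lie below the CPM ratios of Clec4d (0.185), Clec4e (0.231) and Clec5a (0.240), so against these genes, named after their values were seen, the receptors were higher. The other measured neutrophil genes had CPM ratios above that of Clec4d, from 0.200 for Ltf and 0.225 for Ly6g to 0.500 for S100a9. Ltf and Ly6g lay below Clec4e and Clec5a, and the rest lay above all of these receptors. The part of neutrophil content in these differences was not tested.

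Macrophage markers were lower or within 2-fold, with log2 ratios below 0 for 7 and above 0 for 3. They summed to 665 and 1031 CPM. Of 10, 4 stood lower in the library labelled KAT8 cKO (40%, against 8.63% of all measured genes) and none was higher. The lower ones were Cd163 (3.70-fold), Itgam (3.27-fold), Ly6c2 (3.10-fold) and Cd68 (2.03-fold). Csf1r, a growth factor receptor gene of macrophages taken as a denominator after values were seen, had 118 CPM in the library labelled KAT8 cKO and 108 CPM in the library labelled WT. Per 100 Csf1r counts, Clec7a had 28.7 in the library labelled KAT8 cKO and 27.2 in the library labelled WT, and Clec10a had 15.7 and 37.0. Among type 1 dendritic cell markers, 2 of 5 measured were higher (40%, against 4.56% of all measured genes) and none lower. Their sums were 62.8 and 58.7 CPM, and the defining gene Xcr1 had 2 and 0 counts. Among other dendritic and Langerhans cell markers 7 of 10 were higher (70%, against 4.56% of all measured genes) and none lower. Their sums were 328 and 123 CPM. Most of these sums came from H2-Ab1 (166 and 56.9 CPM) and Epcam (100 and 35.3 CPM). Mgl2, the neighbour and closest relative of Clec10a, was among the higher markers with 99 counts in the library labelled KAT8 cKO and 20 in the library labelled WT. There were 2.72 Clec10a counts per Mgl2 count in the library labelled KAT8 cKO and 23.1 in the library labelled WT, and 9.02% of the 50-base stretches of Clec10a transcripts also occur in other genes, chiefly Mgl2.

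**Figure D4:**
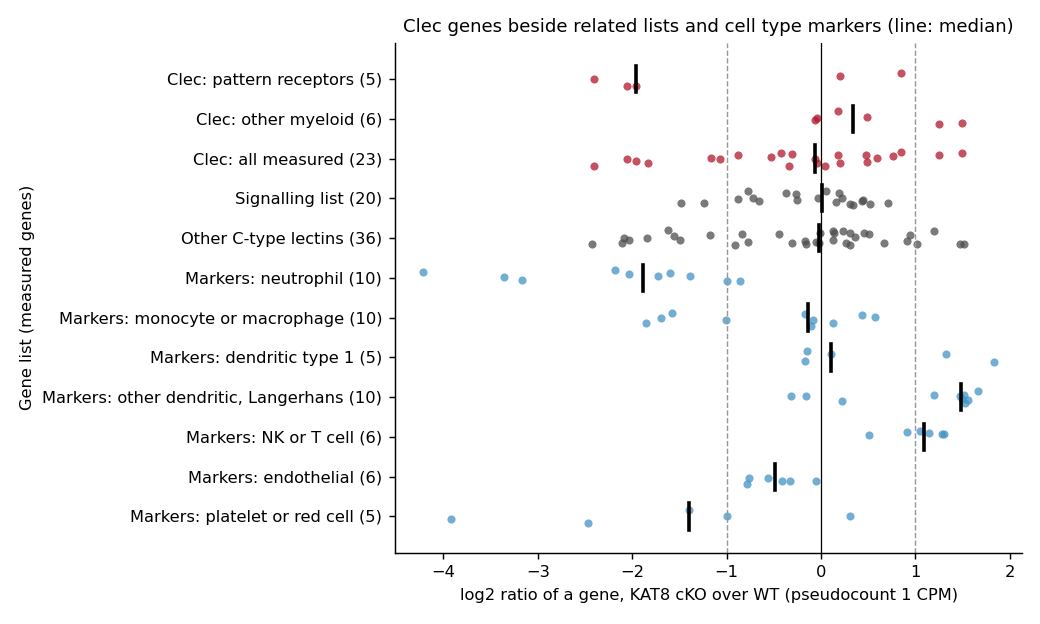
log2 ratios (KAT8 cKO over WT, pseudocount 1 CPM) of measured Clec genes (red), related lists (grey) and cell type markers (blue), one point per gene, with the median as a line. Neutrophil markers lie left of 0 (median -1.88) and the second dendritic list mostly right of 1 (median 1.48), while the Clec pattern receptors fall on either side of 0.

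The inhibitory and other myeloid members lay within 2-fold or were higher in the library labelled KAT8 cKO. Of 7 members 6 were measured, and the median log2 ratio was 0.34. Of these, 2 were higher (33.3%, against 4.56% of all measured genes) and none was lower (against 8.63%). Clec4a2 (DCIR1), the inhibitory receptor that gave the group its name, had 559 counts (38.5 CPM) in the library labelled KAT8 cKO and 465 (40.4 CPM) in the library labelled WT. Its relatives Clec4a1 (DCIR4) and Clec4a3 (DCIR3) had 41.0 and 28.3 CPM in the library labelled KAT8 cKO, against 28.9 and 24.8 CPM in the library labelled WT. Clec4a1 had the larger ratio, 1.42 (interval 1.24 to 1.63). Together these relatives stood within 2-fold in libraries where Clec4d, of the same cluster, differed by 5.42-fold.

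Clec12a (MICL), an inhibitory receptor for uric acid crystals that restrains granulocytes and monocytes, had 191 counts (13.2 CPM) in the library labelled KAT8 cKO and 156 (13.5 CPM) in the library labelled WT. Its ratio was 0.972 (interval 0.783 to 1.21). The higher genes of the group were at low levels. Clec4b1, a DCAR receptor that signals through FcRγ, had 51 counts (3.51 CPM) and 7 (0.608 CPM) in the same order, a ratio of 5.78 (interval 2.61 to 15.1). Clec12b, an inhibitory receptor also known from human skin, had 20 counts in the library labelled KAT8 cKO and 0 in the library labelled WT, at least 5.29-fold higher when the library labelled WT is set to 3 counts. The exact interval of its ratio, which also covers the counting error of the 20 counts, begins at 3.92. Neither stayed past the threshold with a pseudocount of 5 CPM. Clec4b2 had 0 counts in the library labelled KAT8 cKO and 1 in the library labelled WT. Of the 50-base stretches of Clec4b1 and Clec4a4, 8.68% and 15.7% also occur in other genes, chiefly Clec4a2, so their few counts are uncertain.

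Of the Clec4 genes side by side on chromosome 6, the lower ones stood together at one end. The Clec4 cluster spans 368 kb of chromosome 6 (122921848 to 123289870, GRCm38), and the 9 genes the table lists inside it are all Clec genes. In order they are Clec4a1, Clec4a3, Clec4a4, Clec4b1, Clec4a2, Clec4b2, Clec4n, Clec4d and Clec4e. Their log2 ratios were 0.49 for Clec4a1, 0.18 for Clec4a3, 1.49 for Clec4b1, -0.07 for Clec4a2 and 0.85 for Clec4n. The last pair stood at -2.41 (Clec4d) and -2.06 (Clec4e). Clec4n ends 15.1 kb before Clec4d begins, and Clec4d ends 6.52 kb before Clec4e. Clec5a lies far from them, at chromosome 6 from 40574894 to 40585821 on the minus strand, and had a log2 ratio of -1.96.

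**Figure D5:**
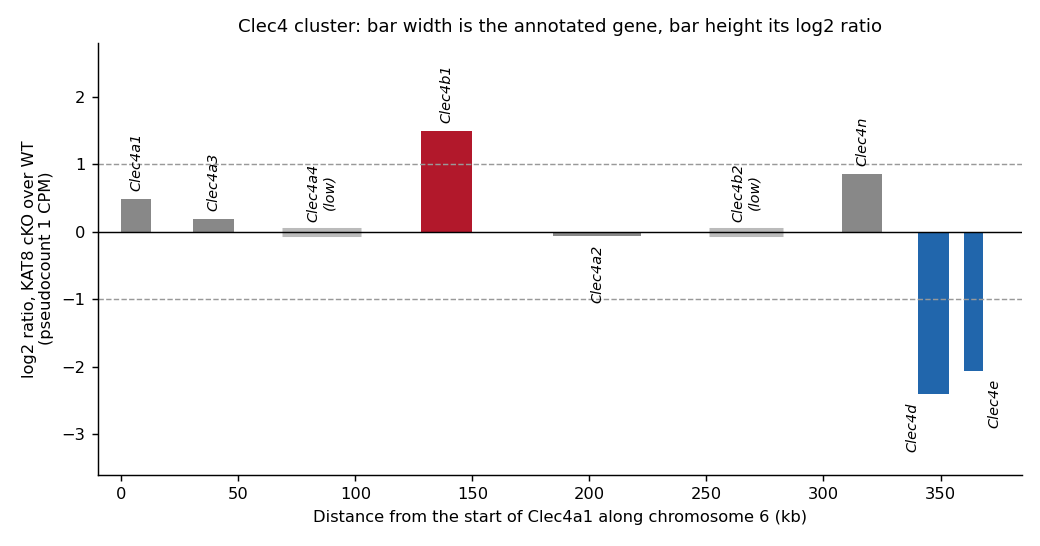
log2 ratio (KAT8 cKO over WT, pseudocount 1 CPM) of the genes of the Clec4 cluster by distance in kb from the start of Clec4a1; bar width is the annotated gene, and genes under 1 CPM in both libraries are drawn flat and marked low. The last genes, Clec4d and Clec4e, stand at -2.41 and -2.06, and their neighbour Clec4n at 0.85.

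Endothelial and platelet members were low or lower. Clec14a, an endothelial protein that binds multimerin 2, had 81 counts (5.58 CPM) in the library labelled KAT8 cKO and 158 (13.7 CPM) in the library labelled WT, 2.46-fold lower (interval 1.87 to 3.25), and within 2-fold with a pseudocount of 5 CPM. None of 6 endothelial markers differed by 2-fold, and they summed to 193 and 249 CPM. The gene of its ligand, Mmrn2, had 14.4 and 23.8 CPM in the same order. Clec1a, a receptor of endothelium and myeloid cells for fungal melanin, had 26 and 35 counts, a ratio of 0.590 (interval 0.341 to 1.01). Clec1b, the platelet receptor for podoplanin, had 0 counts in the library labelled KAT8 cKO and 7 in the library labelled WT. It was under 1 CPM in both, and its exons overlap those of Clec9a. Of 5 measured platelet and red cell markers 3 were lower (60%, against 8.63% of all measured genes). These were the red cell genes Hbb-bs and Alas2, and Pf4. Ppbp and Itga2b lay within 2-fold, at log2 ratios of -0.999 and 0.31. The platelet gene Gp9 had 0 and 1 counts.

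The NKR-P1 ligand genes were led by Clec2d, which was close in both libraries. Clec2d (Clr-b), which marks healthy cells to the inhibitory natural killer receptor NKR-P1B, had 882 counts (60.8 CPM) in the library labelled KAT8 cKO and 872 (75.7 CPM) in the library labelled WT, a ratio of 0.803 (interval 0.730 to 0.883). Klrb1b, the gene of that receptor, had 99 counts (6.82 CPM) and 21 (1.82 CPM) in the same order, a ratio of 3.74 (interval 2.32 to 6.31). Natural killer and T cell markers were higher in 4 of 6 measured cases (66.7%, against 4.56% of all measured genes), with sums of 241 and 97.0 CPM. Thy1 alone made up 215 and 86.7 CPM of these sums. The natural killer genes Klrb1c (10 and 4 counts) and Ncr1 (3 and 1 counts) were under 1 CPM in both libraries. Clec2g had 22 counts (1.52 CPM) in the library labelled KAT8 cKO and 92 (7.99 CPM) in the library labelled WT, 5.27-fold lower (interval 3.28 to 8.81), and within 2-fold with a pseudocount of 5 CPM. The antisense gene Gm15987 lies within the span of Clec2g, but in M21 the exons of these genes do not overlap on either strand. The annotation and strand setting behind the counts are not stated.

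The remaining Clec2 genes were near the limit of measurement. Clec2e (Clr-a) had 3 and 14 counts, a ratio of 0.170 (interval 0.031 to 0.609), and it passed the 2-fold threshold only with a pseudocount of 0.1 CPM. Clec2i (Clr-g), a ligand of the activating receptor NKR-P1F, had 18 and 7 counts, and Clec2l had 55 and 25, a ratio of 1.75 (interval 1.07 to 2.92). Clec2h (Clr-f) had 0 and 6 counts. Clec2g, Clec2i and Clec2h share between 2.15% and 4.13% of their 50-base stretches with other genes.

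Secreted and stromal members lay within 2-fold. Clec3b (tetranectin), a plasminogen-binding protein of matrix and plasma, had 729 counts (50.2 CPM) in the library labelled KAT8 cKO and 737 (64.0 CPM) in the library labelled WT, a ratio of 0.785 (interval 0.708 to 0.871). Clec11a (osteolectin), a growth factor for bone-forming cells, had 145 counts (9.99 CPM) and 63 (5.47 CPM) in the same order, a ratio of 1.83 (interval 1.35 to 2.5). The gene of its receptor subunit, Itga11, had 1.79 CPM in the library labelled KAT8 cKO and 4.69 CPM in the library labelled WT, 2.62-fold lower. Clec3a, a cartilage lectin, had 20 and 15 counts. Of 4 measured cartilage markers 3 were higher in the library labelled KAT8 cKO (75%, against 4.56% of all measured genes). The sums were 151 and 94.2 CPM. Clec18a had 2 and 0 counts. Clec16a, which shares the name but acts in autophagy and mitophagy, had 341 counts (23.5 CPM) and 368 (31.9 CPM), a ratio of 0.736 (interval 0.633 to 0.855). The liver genes Clec4f, of Kupffer cells, and Clec4g, of sinusoidal endothelium, had at most 1 count in either library.

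Per length of merged exons, the order of the family changed at the top. In the library labelled KAT8 cKO the highest levels were those of Clec3b (50.6 CPM per kb), Clec2d (50.1), Clec4a1 (26.3) and Clec4d (23.6). In the library labelled WT Clec4d led with 128 CPM per kb, ahead of Clec3b (64.5), Clec2d (62.4) and Clec4a3 (18.7). Clec4e, whose annotated exons are long, stood at 3.79 CPM per kb in the library labelled KAT8 cKO and 16.4 in the library labelled WT. Clec7a stood at 12.9 and 11.2 CPM per kb.

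Downstream of the receptors, the adaptor and kinase genes differed about as often as genes at large. All 20 genes of the signalling list were measured, 2 stood lower in the library labelled KAT8 cKO (10%, against 8.63% of all measured genes), none was higher (against 4.56%), and the median log2 ratio was 0.01. Tyrobp, the adaptor of Clec5a, had 68.8 CPM in the library labelled KAT8 cKO and 194 CPM in the library labelled WT, 2.83-fold lower. Syk, the kinase shared by the activating receptors, had 85.2 and 202 CPM, 2.37-fold lower. Fcer1g, the adaptor of Clec4d, Clec4e and Clec4n, had 108 and 185 CPM, a ratio of 0.584 that stayed within 2-fold. Card9 had 19.8 and 15.4 CPM, Malt1 37.2 and 35.9 CPM, and Ptpn6, the gene of SHP-1, 69.9 and 59.6 CPM. Tyrobp, Syk and Fcer1g are expressed across myeloid cells, and the neutrophil markers were lower in the same library.

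C-type lectins outside the Clec symbols also went both ways. Of 49 listed genes 36 were measured, 9 stood lower in the library labelled KAT8 cKO (25.0%, against 8.63% of all measured genes) and 4 were higher (11.1%, against 4.56%), with a median log2 ratio of -0.02. The lower ones included Cd209b, Cd209d, Cd209f and Cd209g, relatives of the human receptor DC-SIGN, at log2 ratios of -2.43, -1.85, -1.62 and -2.03. The natural killer-type receptor gene Klra2 stood at -2.09. Thbd, Cd93 and Cd69 stood at -1.55, -1.49 and -1.18. The higher ones were Mgl2 (1.52), Klrb1b (1.47), the Langerhans cell lectin gene Cd207 (1.19) and Cd209c (20 and 2 counts). Mrc1, the mannose receptor of macrophages, had 108 CPM in the library labelled KAT8 cKO and 121 CPM in the library labelled WT.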

How the data were processed

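Polyadenylated RNA of ear skin was sequenced in 2 libraries, 1 per genotype. The deposited table gives counts per Ensembl gene, per the file header, and its whole numbers with unequal totals show no normalization. Per the submitters' processing notes, the tools were HISAT2, StringTie 1.3.0 and edgeR, with no roles stated, and the build mm10. The sources used here state no counting tool, annotation or strand setting, so reads in exons shared by genes cannot be told apart.

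Symbols, positions and merged exon lengths came from GENCODE M21 (GRCm38, the assembly mm10 names), which matched 34267 of 34745 identifiers. Library totals times TMM factors from edgeR 4.0.16 (R 4.3.3), 1.06 for KAT8 cKO and 0.946 for WT, scaled the counts. Ratios carry exact Clopper-Pearson intervals (scipy 1.17.1). Contrasts of counts within libraries carry exact conditional intervals. A library at 0 counts was set to 3 counts (0.207 CPM in KAT8 cKO, 0.260 CPM in WT) for a bound. The calculations were tested on simulated data. No test between genotypes was possible with 1 library each.

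The members and lists were chosen with earlier results of these data known. Every member is named, and genes of the signalling, ligand and other lectin lists where they passed 2-fold, except 1 lectin gene not reported here. Partners of members (such as Fcer1g, Card9 and Mmrn2) and single cell type markers were named outside that rule, after their values were seen. Promoters came from RefSeq and covered 25 of 31 members. Protein features were planned but not analysed here.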

Additional observations from a re-analysis of the deposited data

How the results depend on the processing

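All 8 members past 2-fold stayed so with median-of-ratios factors and a pseudocount of 0.1 CPM, which added Clec2e. Plain CPM, which moved the median of all genes to 0.16 and that of the family to 0.09, lost Clec10a and gained Clec4n, and totals without the 50 most abundant genes lost Clec10a. With a pseudocount of 5 CPM, 0 members were higher and 3 lower (Clec4d, Clec4e and Clec5a), and with a filter of 5 CPM, which kept 16 members, 0 were higher and the family median was -0.33. Scaled per Ptprc count, an alternative chosen after seeing the data that moved the median of all genes to 0.80, 8 of 22 members were higher and 4 lower, against 34.2% and 2.49% of all genes, and the family median was 0.65. The signalling median was 0.16 with plain CPM and -0.26 without genes that share exons. The log2 contrast of pattern over dendritic receptors (-0.70) was 0.025 without Clec4d, -1.24 without Clec7a and -0.69 without Clec9a. It was -1.02 with each gene weighted equally. That value gave Clec9a, at 3 and 0 counts, the same weight as Clec10a. Their log2 ratios were 0.27 and -1.07, so the value depends on a gene that was not measured. The alternative without Clec10a gave no value, since Clec9a had 0 counts in the library labelled WT. Leaving out Clec7a, also chosen after seeing the data, left 2 members higher and 6 lower. No paired analysis was possible because each genotype had 1 library. Members under about 20 counts are limited by depth: the interval of Clec2e spans 0.031 to 0.609.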

Other observations

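The natural killer gene complex between Clec2h and Clec7a on chromosome 6 holds 34 genes of the table, 11 of them Clec members, and 6 of the others were measured. Klrb1b and Cd69, described with the lectins, stood at log2 ratios of 1.47 and -1.18. The transcribed pseudogene BC064078, which lies between Clec2g and Clec2f, had 619 counts in the library labelled KAT8 cKO and 175 in the library labelled WT (log2 ratio 1.43), although Clec2g beside it was lower (-1.84). The pseudogene Clec2f had 65 and 121 counts (-1.07), and the antisense gene Gm15987 had 301 and 162 (0.53). Without a stated strand setting, the values of antisense genes are uncertain. These genes were named after their values were seen.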
